A study of Mus musculus with 6 samples.

Results

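Osteoclast genes and the genes of the RANKL system were followed in bulk RNA sequencing of mouse articular cartilage. The 10 genes were chosen by symbol from the 33971 genes of the table. They are Ctsk, Acp5, Atp6v0d2, Calcr, Ocstamp, Dcstamp, Nfatc1, Tnfrsf11a, Tnfsf11 and Tnfrsf11b. All 10 were found, and all 10 passed the filter on low counts that left 20397 genes for testing. The series holds 3 libraries of 2-month-old mice and 3 of 18-month-old mice, to see how expression in this tissue changes with age. All mice were wild type and no agent was given according to the labels, which name neither strain nor sex and do not say whether a library pools several animals. Each library was kept as its own sample, and p-values measure only the spread between these libraries.

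Osteoclasts are large multinucleated cells that resorb bone and mineralized cartilage. They arise from precursors of the monocyte lineage, which need the cytokine RANKL (gene Tnfsf11) on stromal, osteoblast-lineage or chondrocyte-lineage cells to engage the receptor RANK (gene Tnfrsf11a). RANK signalling raises the transcription factor NFATc1, which turns on the genes of cell fusion and of resorption. Osteoprotegerin (gene Tnfrsf11b) is a secreted decoy receptor that binds RANKL and restrains the process. In joints, osteoclasts lie at the border of bone with calcified cartilage and in the marrow, and healthy articular cartilage itself is free of them.

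Values are given as FPKM, which scales counts by transcript length and by the library and so allows levels of different genes to be compared. The FPKM were not rescaled to a common total per library, so their differences between ages also depend on that scaling. The libraries held between 48171507 and 59085179 counts. Fold changes, with their standard errors (SE), compare 18 months with 2 months on the log2 scale, and come with their p-values from edgeR's quasi-likelihood test of TMM-scaled counts. Called genes are those with a Benjamini-Hochberg adjusted p-value over all genes tested below 0.05 and a log2 fold change beyond 1 in either direction. By this rule 36.3% of all genes tested were called, 14.9% higher and 21.3% lower. An exact permutation test of 3 libraries against 3 cannot give a p-value below 0.1. The libraries of an age were not alike in composition. The summed FPKM of 10 chondrocyte markers was 4165 to 6450 at 2 months and 30.9 to 102 at 18 months, so these defining genes of the labelled tissue were low in the aged libraries. The sum of 10 neutrophil markers was 6.82, 3603 and 56.7 in 2-month replicates 1, 2 and 3, and 41562 to 46509 at 18 months. The study describes male mice, while Xist, the transcript of the inactive X chromosome, had 88239 to 102417 counts at 2 months and 11 to 30 at 18 months. Age and this sex pattern cannot be told apart here.

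Of the 10 genes, 1 was called. Tnfrsf11b, the decoy receptor, was lower in aged cartilage, and the other 9 were not past the limits, against 36.3% called among all genes tested. Groups overlapped for those 9 genes, while for 68.6% of all genes tested the ages did not overlap in CPM, the counts scaled to library size (33.9% higher and 34.6% lower at 18 months). An unadjusted p-value below 0.05 was reached by 1 of the 10 genes, against 59% of all genes tested. The 7 genes that mark the osteoclast itself (Ctsk, Acp5, Atp6v0d2, Calcr, Ocstamp, Dcstamp and Tnfrsf11a) were spread over a wide range among the 2-month libraries and lay close together among the 18-month libraries. In each of them 2-month replicate 1 was lowest, replicate 3 in the middle and replicate 2 highest. All 18-month values of these 7 genes, and of Nfatc1, fell inside the range of the 2-month libraries. This was so for 8.92% of all genes tested, and for 3.36% together with the same order of the 2-month libraries.

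**Figure D1:**
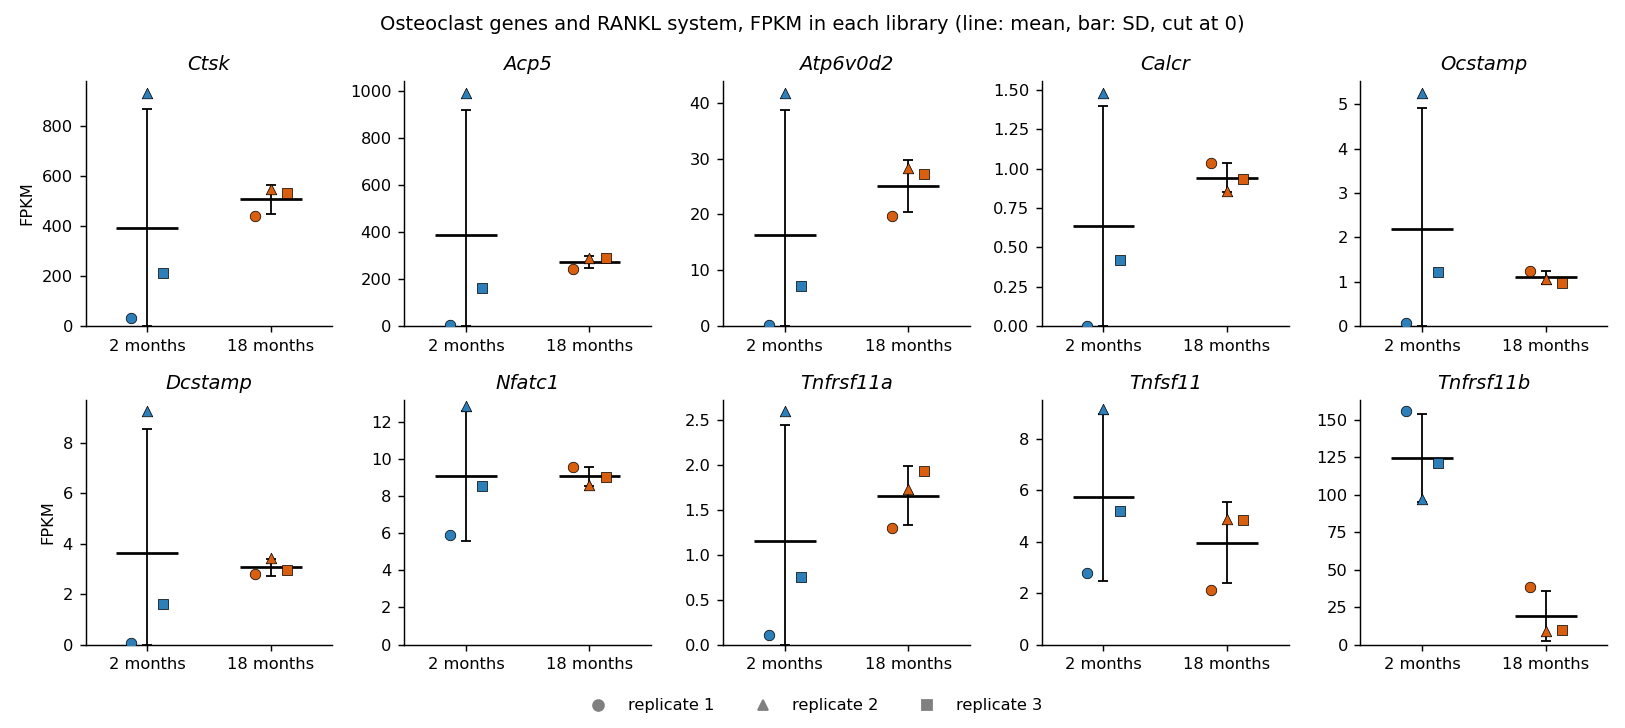
FPKM of each of the 10 genes (y axis, linear, a scale for each gene) in the 3 libraries of 2-month (blue) and 3 of 18-month (orange) cartilage, with replicates as circles, triangles and squares. Horizontal lines are means and bars SDs, cut at 0. The 2-month libraries of the osteoclast genes are far apart with replicate 2 on top, the 18-month libraries lie between them, and Tnfrsf11b falls from 97.2 to 156 FPKM at 2 months to 8.71 to 38.6 at 18 months.

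Ctsk and Acp5, genes of bone breakdown, had the highest mean FPKM of the 10 genes. Ctsk (ENSMUSG00000028111, chromosome 3, 95499256 to 95509362, plus strand) encodes cathepsin K, the lysosomal protease that osteoclasts release to cut type I collagen. Its FPKM was 32.0, 933 and 211 in 2-month replicates 1, 2 and 3, and 440.1, 546 and 534 in 18-month replicates 1, 2 and 3. The aged libraries lay between 2-month replicates 3 and 2. On the log2 scale the fold change was 0.36 (SE 1.02, Benjamini-Hochberg adjusted p = 0.788 in edgeR).

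Acp5 (ENSMUSG00000001348, chromosome 9, 22126727 to 22135711, minus strand) encodes tartrate-resistant acid phosphatase, the enzyme stained to find osteoclasts in tissue sections. It had an FPKM of 4.18, 993 and 164 at 2 months and 241, 288 and 287 at 18 months, in the order of the replicates. The highest 2-month library was 238-fold above the lowest, while the highest 18-month library was 1.2-fold above the lowest. Its log2 fold change was −0.51 (SE 1.44, Benjamini-Hochberg adjusted p = 0.785 in edgeR). GENCODE M21 places a noncoding gene, 6530413G14Rik, across Acp5 on the opposite strand. The libraries mark strand, but whether the authors' counting used it is not given in the sources used here.

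Atp6v0d2 (ENSMUSG00000028238, chromosome 4, 19876841 to 19922605, minus strand) encodes the d2 subunit of the vacuolar proton pump that acidifies the resorption space. It had 14, 6648 and 1100 counts in the 2-month libraries, or 0.0920, 41.8 and 7.21 FPKM. In the 18-month libraries it had 19.8, 28.3 and 27.2 FPKM. Its highest and lowest 2-month libraries differed 455-fold, with 14 counts in the lowest. As a log2 fold change this was 0.61 (SE 1.51, Benjamini-Hochberg adjusted p = 0.754 in edgeR). Set against Atp6v0d1, the subunit of the same place in most other cells, the FPKM of Atp6v0d2 was 0.432% in 2-month replicate 1, 154% in replicate 2 and 37.8% in replicate 3. At 18 months it was 45.6%, 67.2% and 62.8%. The d2 subunit was above the d1 subunit in 2-month replicate 2 alone among the 6 libraries.

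Ctsk and Acp5 followed a similar order over the libraries, and the bases before their starts are shown as the promoter sequence closest to these values, with that of Tnfsf11 as the ligand. They come from RefSeq on GRCm38.p6 and hold the 250 bases before the outermost annotated start, read 5′ to 3′ on the gene's strand. Ctsk lies at chr3:95498960-95499209, Acp5 at chr9:22135747-22135996 and Tnfsf11 at chr14:78308044-78308293. Capitals mark matches to GAGGAAG, a core recognized by PU.1, on either strand.
Ctsk: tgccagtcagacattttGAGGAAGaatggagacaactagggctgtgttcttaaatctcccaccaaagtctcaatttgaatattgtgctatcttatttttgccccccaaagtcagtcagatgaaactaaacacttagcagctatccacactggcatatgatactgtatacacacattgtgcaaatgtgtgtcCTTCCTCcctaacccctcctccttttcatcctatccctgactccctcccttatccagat
Acp5: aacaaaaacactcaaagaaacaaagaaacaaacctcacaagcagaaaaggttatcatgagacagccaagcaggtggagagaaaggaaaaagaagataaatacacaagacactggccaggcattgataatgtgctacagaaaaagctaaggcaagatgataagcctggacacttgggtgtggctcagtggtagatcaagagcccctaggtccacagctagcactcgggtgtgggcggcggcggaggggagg
Tnfsf11: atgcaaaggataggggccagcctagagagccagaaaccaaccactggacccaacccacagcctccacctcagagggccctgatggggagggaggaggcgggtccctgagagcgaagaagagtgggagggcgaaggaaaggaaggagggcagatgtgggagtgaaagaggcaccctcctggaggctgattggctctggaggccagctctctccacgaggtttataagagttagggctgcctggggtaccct
The table held promoters for 5 of the 10 genes, Ctsk, Acp5, Calcr, Tnfrsf11a and Tnfsf11, in 8 windows, since Acp5 has 3 listed starts and Calcr 2. The PU.1 core was found before Ctsk on both strands, at bases 233 to 227 and 59 to 53 before the start, and 10.6% of all 32851 promoters of the same length hold it. TGGAAA, the NFAT core (in 18.6% of all promoters), and CATGTG, an MITF site (12.3%), were found before a start of Acp5 other than the outermost. TGANTCA, the AP-1 site (6.75%), was in none of the 8 windows. A match here describes letters and does not show binding.

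Genes of precursor fusion and the calcitonin receptor were low in level and had the same order. Dcstamp (ENSMUSG00000022303, chromosome 15, 39745930 to 39760938, plus strand) encodes DC-STAMP, a membrane protein without which osteoclast precursors stay mononuclear. It had 8, 1443 and 242 counts in the 2-month libraries and 501, 580 and 505 in the 18-month libraries. In FPKM this was 0.0501, 9.24 and 1.59 against 2.78, 3.44 and 2.95, and the log2 fold change was −0.25 (SE 1.34, Benjamini-Hochberg adjusted p = 0.889 in edgeR). The aged libraries were above 2-month replicate 3 and below replicate 2.

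Ocstamp (ENSMUSG00000027670, chromosome 2, 165393760 to 165400405, minus strand) encodes OC-STAMP, the related fusion protein. It had 0.0690, 5.26 and 1.21 FPKM at 2 months and 1.25, 1.07 and 0.971 at 18 months. Among the 7 osteoclast genes it was the one whose 18-month values lay around 2-month replicate 3, with 1 of the 3 above it. Its log2 fold change was −1.01 (SE 1.203, Benjamini-Hochberg adjusted p = 0.513 in edgeR).

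Calcr (ENSMUSG00000023964, chromosome 6, 3685680 to 3764714, minus strand) encodes the calcitonin receptor, through which the hormone stops resorption, and marks mature osteoclasts. It had 0 counts in 2-month replicate 1, 340 in replicate 2 and 92 in replicate 3. In the 18-month libraries it had 274, 213 and 233 counts, or 1.04, 0.858 and 0.931 FPKM. A count of 0 in 2-month replicate 1 allows up to 3 counts, or 0.0661 CPM on the TMM scale, and replicate 2 was at least 96.8-fold above that floor. On the log2 scale the fold change was 0.56 (SE 1.44, Benjamini-Hochberg adjusted p = 0.766 in edgeR).

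Receptor and master factor differed in how far they varied. Tnfrsf11a (ENSMUSG00000026321, chromosome 1, 105780718 to 105847981, plus strand), which encodes RANK, had 0.111, 2.59 and 0.748 FPKM at 2 months and 1.29, 1.73 and 1.93 at 18 months. Its log2 fold change was 0.50 (SE 0.95, Benjamini-Hochberg adjusted p = 0.680 in edgeR). Its 2-month libraries differed 23.5-fold. Nfatc1 (ENSMUSG00000033016, chromosome 18) encodes a factor that other cells use too. It had 5.91, 12.9 and 8.56 FPKM at 2 months and 9.60, 8.58 and 9.05 at 18 months. It kept the order of the osteoclast genes among the 2-month libraries, but over a 2.17-fold range. The means of the ages were 9.11 ± 3.50 and 9.08 ± 0.510 FPKM (SD, n = 3 each), and the log2 fold change was −0.07 (SE 0.25, Benjamini-Hochberg adjusted p = 0.838 in edgeR). GENCODE M21 places an antisense gene across Nfatc1, and strand use in the counting is not given in the sources used here.

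**Figure D2:**
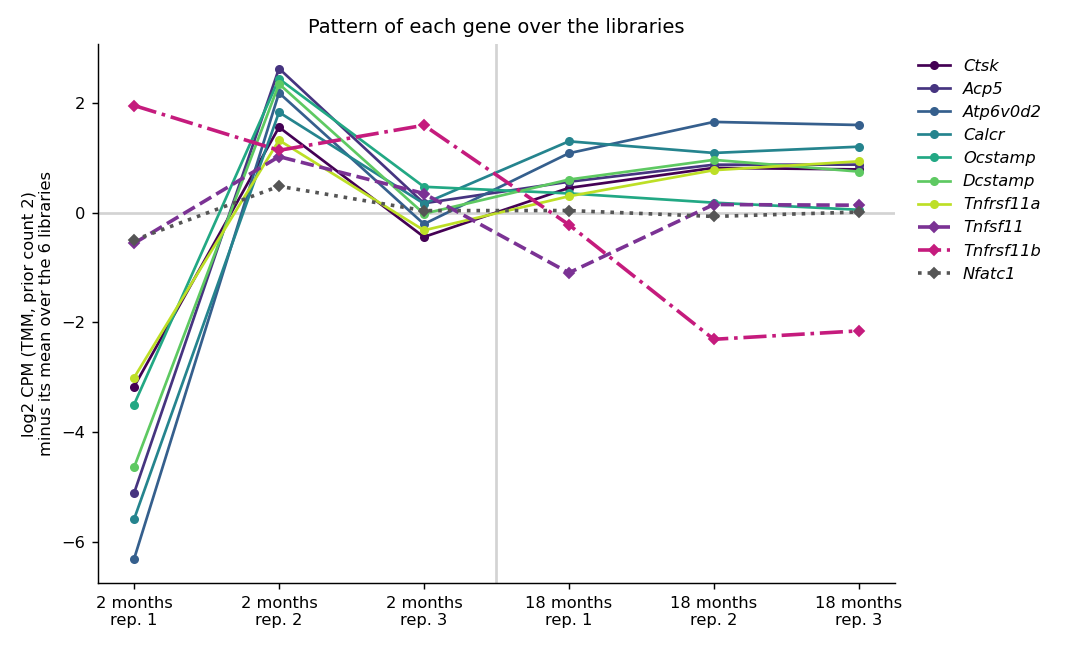
Log2 CPM (counts scaled to library size, TMM, prior count 2) of each gene minus its mean over the 6 libraries (y axis), by library (x axis); lines only join the points of a gene. The 7 osteoclast genes run from −3.01 or lower in 2-month replicate 1 to 1.32 or higher in 2-month replicate 2, Nfatc1 stays between −0.50 and 0.48, and Tnfrsf11b falls from 1.14 to 1.95 at 2 months to −2.31 to −0.22 at 18 months.

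The wide range was a property of the 2-month libraries. Over the 13900 genes tested whose mean FPKM was 1 or more, the median ratio of the highest to the lowest library was 1.40 at 2 months and 1.23 at 18 months. Ctsk, Acp5, Atp6v0d2, Ocstamp, Dcstamp and Tnfrsf11a had ratios of 29.2, 238, 455, 76.3, 184 and 23.5 at 2 months. At 18 months their ratios were 1.24, 1.2, 1.43, 1.29, 1.24 and 1.5. For Ctsk the 2-month ratio was above that of 93.1% of those genes, and the 18-month ratio above that of 51.7%. Tnfrsf11b had the opposite pattern, with 1.60 at 2 months and 4.43 at 18 months, the latter above 97.1% of genes. Tnfsf11 had 3.31 and 2.29.

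Within a library the osteoclast genes did not keep a fixed ratio. Ctsk was 7.65 times as high as Acp5 in 2-month replicate 1, where both were lowest, 0.940 times in replicate 2 and 1.29 times in replicate 3. It was 1.83, 1.896 and 1.86 times as high at 18 months, in FPKM. The 18-month libraries had a common ratio that none of the 2-month libraries had. Atp6v0d2 was 2.20%, 4.21% and 4.399% of Acp5 at 2 months and 8.21%, 9.84% and 9.45% at 18 months. Ocstamp was 1.65%, 0.530% and 0.739% of Acp5 at 2 months and 0.518%, 0.371% and 0.338% at 18 months. So relative to Acp5 the proton pump subunit was higher and the fusion gene lower in each aged library, while Dcstamp stayed between 0.930% and 1.199% of Acp5 in the 6 libraries. Ctsk is also made by fibroblasts and chondrocytes and Acp5 by macrophages, so these ratios do not belong to osteoclasts alone.

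Tnfrsf11b (ENSMUSG00000063727, chromosome 15, 54250619 to 54278484, minus strand), osteoprotegerin, had 156, 97.2 and 121 FPKM in the 2-month libraries and 38.6, 8.71 and 9.67 in the 18-month libraries. Every aged library was below every young library, and 18-month replicate 1 was well above the other aged libraries. The mean fell from 125 ± 29.5 to 19.0 ± 17.0 FPKM (SD, n = 3 each). As a log2 fold change this was −2.82 (SE 0.66, Benjamini-Hochberg adjusted p = 0.016 in edgeR). Without 18-month replicate 3 it was −2.51 and no longer past the threshold (adjusted p = 0.0526 in the same test; range without any 1 library, 0.0028 to 0.0526). The highest 2-month value was in replicate 1, the library with the lowest osteoclast genes, and the lowest was in replicate 2. The aged library with the highest Tnfrsf11b also had the highest sums of chondrocyte markers (102 FPKM against 30.9 in each of the other two) and of synovial and tendon fibroblast markers (1413 against 287 and 281). Among the 2-month libraries the chondrocyte sum ran the other way, at 4165 in replicate 1, where Tnfrsf11b was highest, and 6450 in replicate 2, where it was lowest. The fibroblast sum was 6106, 2591 and 6490 in 2-month replicates 1, 2 and 3. Of the 8 genes in that fibroblast list 1 was called higher, 3 lower and 4 not called, against 14.9% and 21.3% of all genes tested called higher and lower. Its sum therefore does not stand for each of its genes. Chondrocytes and fibroblasts make osteoprotegerin, and the part of these cells in its fall was not tested. In bulk tissue, fewer cells of a type and less RNA per cell cannot be told apart.

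Tnfsf11 (ENSMUSG00000022015, chromosome 14, 78277445 to 78308043, minus strand), RANKL, was lower in level than its decoy in each of the 6 libraries. It had 2.78, 9.18 and 5.21 FPKM at 2 months and 2.13, 4.89 and 4.83 at 18 months. The ages overlapped, and the lowest library of each age was replicate 1. On the log2 scale the fold change was −0.58 (SE 0.51, Benjamini-Hochberg adjusted p = 0.375 in edgeR).

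The ratio of Tnfsf11 to Tnfrsf11b is often used to describe how far resorption is favoured, and as a ratio within a library it does not depend on scaling between libraries. In FPKM it was 0.0178, 0.0945 and 0.0431 in the 2-month libraries and 0.0554, 0.562 and 0.500 in the 18-month libraries. The mean was 0.0518 ± 0.0391 at 2 months and 0.372 ± 0.276 at 18 months (SD, n = 3 each), a difference of 2.58 between the mean log2 ratios. Still the ages overlapped, since 18-month replicate 1 was below 2-month replicate 2. In the other two aged libraries there were 1.78 and 2.00 FPKM of Tnfrsf11b for each FPKM of Tnfsf11, against 10.6 to 56.1 at 2 months. The difference of the mean log2 ratios was 3.67 without 18-month replicate 1 and 3.17 without 2-month replicate 2. Leaving out 2-month replicate 1 gave 1.97, and leaving out 18-month replicate 2 or 3 gave 2.00 or 2.08. Among the 2-month libraries the ratio followed the order of the osteoclast genes, with replicate 1 lowest and replicate 2 highest. At 18 months replicate 1 was lowest in the ratio and in the summed FPKM of the 7 osteoclast genes, which ran from 707 to 869.9. That sum is made up mostly of Ctsk and Acp5, and the single genes did not all follow it. Ctsk, Acp5, Atp6v0d2, Dcstamp and Tnfrsf11a were lowest in 18-month replicate 1, while Calcr and Ocstamp were highest there.

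**Figure D3:**
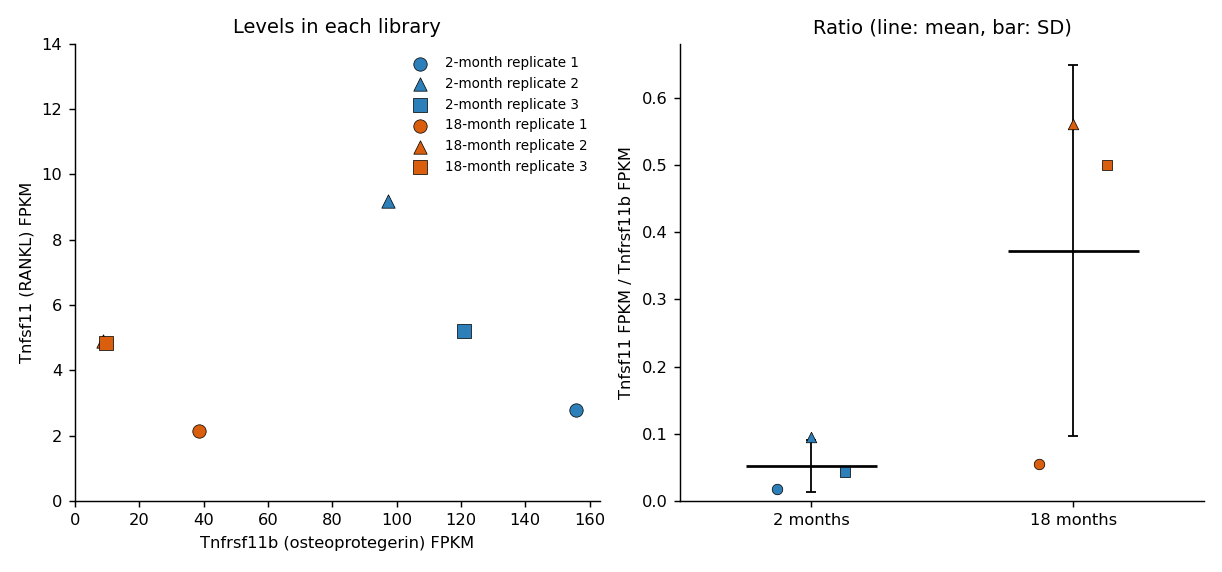
Left, FPKM of Tnfsf11 (y axis) against FPKM of Tnfrsf11b (x axis) in each library, both linear from 0. Right, their ratio in each library by age, with the mean as a line and the SD as a bar; 18-month replicates 2 and 3 lie at 0.562 and 0.500, while 18-month replicate 1, at 0.0554, lies among the 2-month libraries at 0.0178 to 0.0945.

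The fold changes of the osteoclast genes turned on which 2-month library was in the fit. Without 2-month replicate 2 the 7 osteoclast genes were all above 0, with log2 fold changes of 1.95 for Ctsk, 1.58 for Acp5, 2.67 for Atp6v0d2, 2.06 for Calcr, 0.66 for Ocstamp, 1.77 for Dcstamp and 1.84 for Tnfrsf11a. None of them was past the threshold, with the lowest adjusted p-value at 0.0768 for Ctsk (Benjamini-Hochberg adjusted, edgeR), in a fit where 44.6% of all genes were called. Without 2-month replicate 1 the values in the same order were −0.18, −1.09, 0.03, −0.03, −1.58, −0.83 and −0.03. Of the 10 genes 7 had opposite signs in these fits. Tnfrsf11b stayed below 0 in both, at −2.99 and −2.60.

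**Figure D4:**
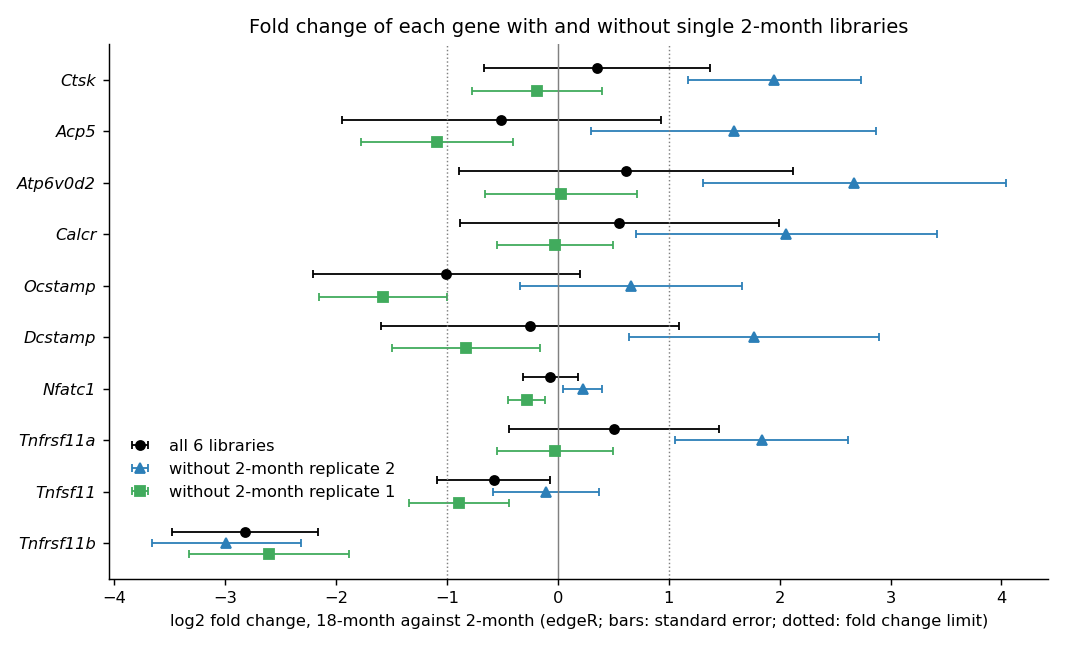
Log2 fold change of each gene, 18-month against 2-month (x axis), with all 6 libraries (black), without 2-month replicate 2 (blue) and without 2-month replicate 1 (green). Bars are standard errors and dotted lines the fold change limits of −1 and 1; Tnfrsf11b lies near −2.82 in each fit, and the osteoclast genes move from the right of 0 without replicate 2 to near or below 0 without replicate 1.

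Other genes of the osteoclast were taken from lists. Of 14 further genes of acid secretion, attachment and matrix breakdown, 2 were called higher and 1 lower, against 14.9% and 21.3% of all genes (median log2 fold change 0.44, against −0.02 over all genes tested). Itgb3, the β3 integrin with which osteoclasts and platelets attach, rose from 4.93, 30.7 and 5.20 to 63.1, 81.0 and 80.3 FPKM, a log2 fold change of 2.44 (Benjamini-Hochberg adjusted p = 0.040 in edgeR). Its partner Itgav fell from between 14.6 and 19.95 FPKM at 2 months to between 6.47 and 7.68 at 18 months (−1.35, Benjamini-Hochberg adjusted p = 0.0016 in edgeR). Ostm1, which carries the chloride channel of the resorption space, rose by 1.84 (adjusted p = 0.014, same test). Itgb3 was called without 2-month replicate 2 (3.79) but not when any other library was left out, where its adjusted p-value was up to 0.0985. It was also not called with all libraries and no filter on low counts (adjusted p = 0.0565), nor with 18-month replicates 2 and 3 summed (0.0931). Without 2-month replicate 2 the list had 7 genes called higher and 1 lower, against 23.3% and 21.3% of all genes. Mmp9, the gelatinase that osteoclasts share with neutrophils and the most abundant of the list, had 1.08, 472 and 50.99 FPKM at 2 months and 262, 265 and 267 at 18 months. Its log2 fold change was 0.60 (adjusted p = 0.770, same test). It had the pattern of the osteoclast genes, with the aged libraries inside the young range, as did Clcn7, Mmp14, Src, Ckb and Slc9b2, 6 of the 14 genes against 3.36% of all genes tested.

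Of 16 receptors, ligands and adaptors that accompany RANK, 4 were called higher and 1 lower (median 1.73), against 14.9% and 21.3% of all genes. Lgr4, an R-spondin receptor that also binds RANKL, fell from 10.2, 13.1 and 10.6 to 2.10, 1.92 and 1.57 FPKM, with a log2 fold change of −2.67 (SE 0.14, Benjamini-Hochberg adjusted p = 0.00071 in edgeR). It was called lower in each of the 6 fits that left out 1 library. Fcer1g, a signalling adaptor of osteoclast precursors and of other myeloid cells, rose by 3.88 (adjusted p = 0.039, same test) and Trem2, a receptor that signals through Tyrobp, by 3.20 (adjusted p = 0.020). Both were called in some of the fits without 1 library, Fcer1g without 2-month replicate 1 or 2 and Trem2 without either of these or 18-month replicate 1. Their highest adjusted p-values were 0.103 and 0.0574, each without 2-month replicate 3. With 18-month replicates 2 and 3 summed both lost their calls (adjusted p = 0.0843 for Fcer1g and 0.0534 for Trem2), and Fcer1g did so with all libraries and no filter (0.0548). Tyrobp, the most abundant of the list, had 0.436, 97.9 and 14.6 FPKM at 2 months and 517, 570.3 and 559 at 18 months, and was not past the threshold (3.86, adjusted p = 0.085). Without 2-month replicate 1 (3.28) and without 2-month replicate 2 (6.08) it was. With all 6 libraries DESeq2 called Tyrobp (adjusted p = 0.0031), and the edgeR alternatives did not (up to 0.118). In limma it was called on log2(FPKM + 0.1) (adjusted p = 0.031), log2(FPKM + 1) (0.018) and log2(TPM + 0.1) (0.0498). On log2(FPKM + 0.1) with no filter limma did not call it (adjusted p = 0.0523). The ages did not overlap for Tyrobp, Fcer1g and Trem2, with all 18-month values on top. Over the list 10 of 16 genes lay higher without overlap, 1 lower and 5 overlapped, against 33.9% higher and 34.6% lower among all genes tested. Without 2-month replicate 2 the list had 11 genes called higher and 1 lower, against 23.3% and 21.3% of all genes in that fit.

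Of 12 tested factors that promote osteoclast formation, besides Nfatc1, 1 was called higher and 2 lower (median 0.33), against 14.9% and 21.3% of all genes. Mitf, which works with PU.1 at osteoclast genes, fell from 4.14, 2.79 and 3.73 to 1.15, 1.03 and 1.002 FPKM (−1.83, Benjamini-Hochberg adjusted p = 0.0020 in edgeR). Nfatc2, the relative of Nfatc1, fell by 1.22 (adjusted p = 0.010, same test), and was not past the fold limit without 2-month replicate 3 (−0.92), nor with all libraries in limma on log2(FPKM + 0.1) (−0.999) and on log2(FPKM + 1) (−0.56). Myc rose by 1.67 (adjusted p = 0.013), and was not past the threshold without 2-month replicate 3 (1.60, adjusted p = 0.0528). Spi1, which encodes PU.1 and was the most abundant of the list, had 0.0850, 13.7 and 1.64 FPKM at 2 months and 66.2, 60.6 and 62.2 at 18 months. It was not past the threshold (3.61, adjusted p = 0.090), and passed it without 2-month replicate 1 (3.04) and without 2-month replicate 2 (6.06). With all 6 libraries DESeq2 called Spi1 (adjusted p = 0.0050), and the edgeR alternatives did not (up to 0.127). In limma it was called on log2(FPKM + 0.1) (adjusted p = 0.023), log2(FPKM + 1) (0.0076) and log2(TPM + 0.1) (0.045). Of 10 genes that restrain osteoclast formation, 1 was called higher and 2 lower (median 0.07), again against 14.9% and 21.3%. Socs3, a brake on cytokine signalling, rose by 1.49 (adjusted p = 0.0038), Bcl6, a repressor, fell by 1.497 (adjusted p = 0.015), and Id1, an inhibitor of helix-loop-helix factors, fell by 2.12 (Benjamini-Hochberg adjusted p = 0.0031 in edgeR in each case). Bcl6 was not past the threshold without 18-month replicate 2 (−1.41) and without 18-month replicate 3 (−1.37), nor with these libraries summed (−1.37, adjusted p = 0.0591).

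Of 10 further genes linked to fusion, 5 were called higher and 2 lower (median 1.72), against 14.9% and 21.3% of all genes. Adam8, a membrane protease also made by neutrophils, rose from 0.331, 3.74 and 0.979 to 37.3, 41.6 and 41.4 FPKM (4.54, Benjamini-Hochberg adjusted p = 0.0086 in edgeR). Cd44, a hyaluronan receptor of many leukocytes, rose by 2.12 (adjusted p = 0.032, same test) and was called without 2-month replicate 1 or 2, with an adjusted p-value of up to 0.103 without other libraries and 0.0729 with 18-month replicates 2 and 3 summed. The tetraspanins Cd9 and Cd81 fell by 1.21 and 1.02 (adjusted p = 0.0045 and 0.012), and Cd81 was not past the fold limit without 2-month replicate 1 (−0.84) or 3 (−0.98). With all libraries Cd81 also lost its call under most alternatives, with log2 fold changes of −0.97 by median-of-ratios factors and by DESeq2, −0.94 by total counts, −0.99 without the filter, −0.90 and −0.88 in limma on log2(FPKM + 0.1) and log2(FPKM + 1), and −0.98 with a replicate block. So these partners moved in both directions, while Dcstamp and Ocstamp were not called.

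Of 18 tested subunits of the proton pump other than Atp6v0d2, 0 were called higher and 1 lower (median 0.45), and 10 had an unadjusted p-value below 0.05. Among all genes tested 36.3% were called and 59% had such a p-value, so 10 of 18 is near the background. DESeq2 called 2 of the subunits, against 41.9% of all genes. Atp6v1g1, the most abundant, had 77.8 to 97.9 FPKM at 2 months and 89.7 to 104 at 18 months (0.08, Benjamini-Hochberg adjusted p = 0.542 in edgeR). Without 2-month replicate 2, 5 subunits were called higher and 1 lower, against 23.3% and 21.3% of all genes in that fit. The 1 called lower was Atp6v0a4, the subunit of kidney and inner ear, named after its values were seen, with a log2 fold change of −3.21 (adjusted p = 0.025, same test). It lost its call without 2-month replicate 1 (adjusted p = 0.0502), without 2-month replicate 3 (0.0634), without 18-month replicate 2 (0.0824) and with 18-month replicates 2 and 3 summed (0.0556). Among partners and ligands of the calcitonin receptor, 1 of 4 tested genes was called higher and 1 lower, against 14.9% and 21.3% of all genes. Ramp1, an accessory protein that turns calcitonin-family receptors toward amylin and CGRP, rose from 5.88 to 7.86 FPKM at 2 months to 15.2 to 17.2 at 18 months (1.12, adjusted p = 0.0020, same test). In limma on log2(TPM + 0.1) it was short of the fold limit (0.76). Ramp2 fell by 1.71 (adjusted p = 0.0023).

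Markers of other cell types were read beside these values. The summed FPKM of the 7 osteoclast genes was 36.5, 1987 and 386 at 2 months and 707, 869.9 and 855 at 18 months. The sum of 12 monocyte and macrophage markers was 33.3, 677 and 104 at 2 months and 4178 to 5470 at 18 months, and 11 of the 12 were higher in every aged library, against 33.9% of all genes tested. Of these 12 markers 4 were called higher and 8 were not called, against 14.9% of all genes tested called higher. Thus Acp5 was 1.52, 23.4 and 14.7 times as high as Cd68, the lysosomal protein of macrophages and osteoclasts, at 2 months, and 4.45, 4.87 and 5.15 times at 18 months. The 11 osteoblast and osteocyte markers had sums of 2007, 5084 and 2139 at 2 months and 1264 to 1318 at 18 months. Of them 4 were called lower and 0 higher, against 21.3% and 14.9% of all genes tested. Among them Col1a1, the bone collagen, had 29.3, 1420 and 60.0 FPKM at 2 months and 285, 279 and 286 at 18 months, the pattern of the osteoclast genes. Ibsp, a sialoprotein of mineralizing cells, had 1360 to 1621 FPKM at 2 months and 182 to 194 at 18 months.

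The B lymphocyte markers were also inside the young range, in 7 of 8 genes against 8.92% of all genes tested. Their sums were 1.03, 102 and 1.77 at 2 months and 68.0 to 83.6 at 18 months. The sums of erythroid markers (288, 7377 and 788 at 2 months) and of T lymphocyte markers (0.396, 6.37 and 1.21) had the same order of the 2-month libraries, and at 18 months they lay above the young range, at 29916 to 39676 and 29.9 to 39.1. The sum of 6 markers of marrow stroma was 17.4, 67.1 and 16.4 at 2 months and 174 to 184 at 18 months. Muscle markers were at 5.67 to 29.4 and 0.727 to 1.06. So 2-month replicate 2, the library highest in osteoclast genes, was also the young library highest in the sums of chondrocyte, bone, marrow, blood and muscle markers. It was lowest in the sum of synovial and tendon fibroblast markers. The part of such tissue in the osteoclast values was not tested.

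**Figure D5:**
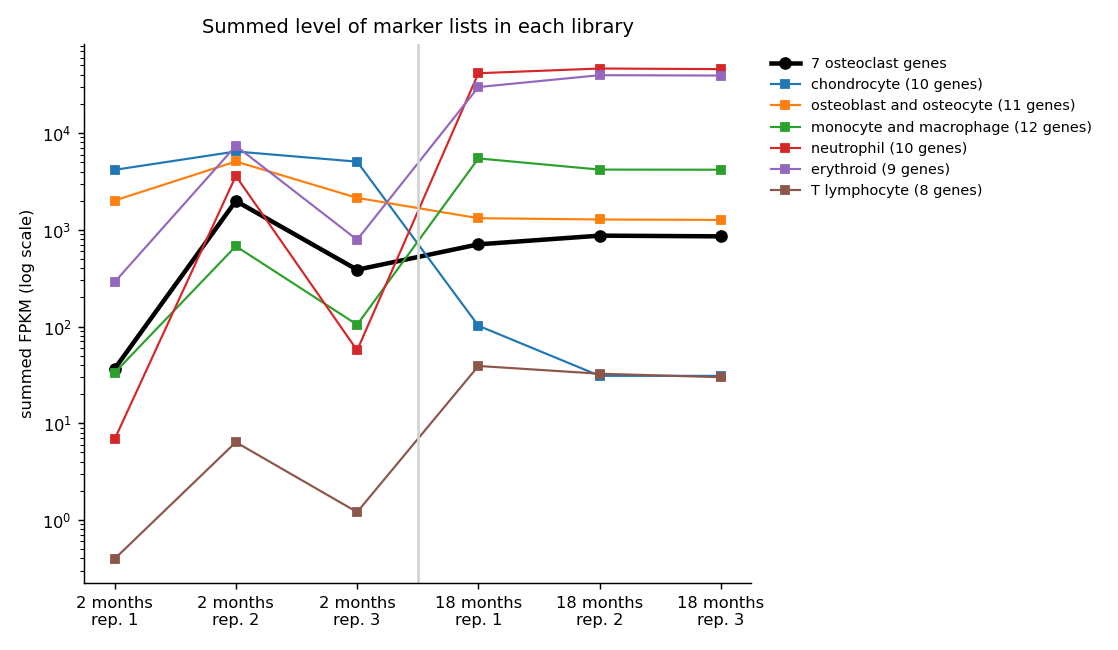
Summed FPKM (y axis, log scale) of the 7 osteoclast genes (black) and of marker lists of other cell types (colours) in each library (x axis); lines only join the points of a list. Between 2-month replicate 2 and the 18-month libraries the osteoclast sum falls from 1987 to between 707 and 869.9 while monocyte and macrophage markers rise from 677 to 4178 or more, and chondrocyte markers fall to 102 or less.

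Over the 13899 other genes whose mean FPKM was 1 or more, the gene whose centred log2 CPM were nearest to those of Ctsk over the 6 libraries was Emcn, a sialomucin of endothelial cells, at a Euclidean distance of 0.16. Its FPKM was 0.126, 3.73 and 0.836 at 2 months and 1.66, 2.24 and 1.94 at 18 months. Tnfrsf11a came next at 0.38, and then Mst1r, a receptor kinase, also at 0.38. For Tnfsf11 they were Wnt4 (0.25), a secreted signal, Ece1 (0.70) and Adnp (0.72). For Tnfrsf11b they were Ddit4l (0.33), Tmtc1 (0.35) and Osr2 (0.37), a factor of joint development, and these 3 genes had log2 fold changes of −2.71, −2.98 and −2.66. Among the 10 genes themselves, Acp5 and Dcstamp were 0.60 apart and Atp6v0d2 and Tnfrsf11b 10.2 apart.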

How the data were processed

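Articular cartilage of wild-type mice was sequenced in 3 libraries at 2 months and 3 at 18 months. Libraries were selected on oligo(dT), marked for strand with dUTP and given molecular identifiers, and whether the counts are free of duplicates is not given in the sources used here. Raw counts for every gene were deposited as whole numbers, next to FPKM that the authors had scaled for transcript length and library. The submitters' processing notes name cutadapt 1.9, HISAT2 2.0.4, UMI-tools, StringTie 1.3.4d, DESeq2 and edgeR, without roles. Build and annotation are not given in the sources used here, but all 10 genes have the coordinates of GENCODE M21 (GRCm38), where 99.7% of the table's genes were found by identifier. Of the genes found, 87.5% had identical coordinates there, so the release used may be another. Columns named young and aged were taken as 2 and 18 months.

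The counts went into edgeR 4.0.16 under R 4.3.3 (TMM, filterByExpr, quasi-likelihood test, no replicate block), and p-values were adjusted by Benjamini-Hochberg over 20397 genes. Standard errors came from the fold change and the square root of its F statistic. Alternatives used median-of-ratios factors, total counts alone, no filter, DESeq2 1.42.0, limma 3.58.1 with trend on log2(FPKM + 0.1), log2(FPKM + 1) and log2(TPM + 0.1) where the mean reached 0.1, a replicate block, and each library left out. Summing 18-month replicates 2 and 3 was added after seeing the data. These were the closest pair of an age, with a median chi-square 6.25 times that of counting noise against 13.2 to 51.7 for the others. A spread above counting noise cannot tell separate animals from repeat libraries of a shared source, so it does not decide whether this pair is independent. All libraries were kept as separate samples, as labelled. The tests were checked on simulated counts with the same dispersion for every gene and both ages. That check does not cover the unequal spread of the 2-month and 18-month libraries. The genes and lists were chosen with earlier results of these data known. All 10 genes are named. From each further list the text names its most abundant gene, and up to 2 called genes that rose most and 2 that fell most (mean FPKM at least 1). The 2 most abundant osteoblast markers are named, while the rule's like pairs of the other marker lists are given only within their sums. Ctsk, Tnfsf11 and Tnfrsf11b have their 3 nearest genes. Xist, Atp6v0d1, Atp6v0a4, Cd68 and the further genes inside the young range were named after their values were seen. Plots used matplotlib 3.10.9 under Python 3.11.15. Floors cover counting error only.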

Additional observations from a re-analysis of the deposited data

How the results depend on the processing

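Tnfrsf11b was the 1 gene called of the 10 under each alternative with all 6 libraries and with 18-month replicates 2 and 3 summed, while 20.3% to 44.6% of all genes were called over the alternatives. Leaving out a library gave 0 to 1 called and 0 to 1 lower. The other 9 were called under none of the alternatives, but signs turned for several, and the cause was not tested. limma on log2(FPKM + 0.1), with and without the filter, gave 1.61 for Acp5, 0.17 for Ocstamp, 1.24 for Dcstamp and 0.064 for Nfatc1. On log2(FPKM + 1) it gave 1.52 for Acp5, 0.42 for Dcstamp and 0.053 for Nfatc1, and on log2(TPM + 0.1) 1.19 for Acp5 and 1.10 for Dcstamp. The sign of Atp6v1g1, a pump subunit outside the 10 genes, also turned on log2(TPM + 0.1), to −0.27. Replicate numbers did not pair the libraries, since deviations of same-numbered libraries correlated at 0.034, 0.044 and −0.024 across genes. The fit with a replicate block gave 1.15 for Acp5, 0.097 for Ocstamp and 1.203 for Dcstamp, called 1 of the 10 genes, Tnfrsf11b at −3.13, and lowered the share of all genes called to 29.6%.

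Leaving out each library gave log2 fold changes of −0.18 to 1.95 for Ctsk, −1.09 to 1.58 for Acp5, −0.027 to 2.06 for Calcr, −1.58 to 0.66 for Ocstamp, −0.83 to 1.77 for Dcstamp, −0.28 to 0.23 for Nfatc1 and −0.028 to 1.84 for Tnfrsf11a. Calls in either direction were 2 to 8 of the resorption genes, 3 to 12 of the receptors and adaptors, 1 to 4 of the promoting factors, 2 to 4 of the restraining factors, 5 to 8 of the fusion genes, 0 to 6 of the pump subunits and 2 to 3 of the calcitonin genes, and the log2 difference of the Tnfsf11 to Tnfrsf11b ratio was 1.97 to 3.67. Over these fits 26.4% to 44.6% of all genes were called. With all libraries, DESeq2 called 5 resorption genes, 9 receptors and adaptors, 5 restraining factors and 2 pump subunits, against 41.9% of all genes. In the first 3 of these lists limma on log2(FPKM + 0.1) called 5, 10 and 5 genes (9 receptors and adaptors and 5 restraining factors with no filter) and on log2(FPKM + 1) 5, 9 and 5. The shares of all genes called were 40% on log2(FPKM + 0.1), 24.8% with no filter and 24.4% on log2(FPKM + 1). On log2(TPM + 0.1) limma called 8 receptors and adaptors and 2 pump subunits, against 36.3% of all genes. With 18-month replicates 2 and 3 summed, 3 receptors and adaptors and 0 pump subunits were called, against 27.6% of all genes. The lowest libraries of Dcstamp, Ocstamp and Atp6v0d2 held 8 to 14 counts, so depth limits their 2-month ratios.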
